A study of Mus musculus with 6 samples.

Results

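The genes described here encode the initiation, elongation and release factors of cytoplasmic translation, with the kinases, methyltransferases and binding proteins that act on them. They were chosen as the protein-coding genes whose symbols begin with Eif1 to Eif6, Eef1 or Eef2, Etf1, Gspt1 or Gspt2. That rule uses names and no measured value, and it found 72 genes of the 27884 in the deposited count table. The rule also takes in genes that only carry a factor-like name, such as Eef1e1, Eif1ad and Eif4a3, which are kept apart below.

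The IP libraries hold the RNA bound to EGFP-tagged ribosomes, taken with anti-GFP magnetic beads from the preoptic area, a hypothalamic region that controls body temperature. The input libraries hold the total RNA of the same punches. Both come from NuTRAP::Pnoc-Cre females of 17 to 18 weeks, so that the tag and the Cre allele are shared by all libraries, and each of the 3 replicates pools punches of 3 animals. In these mice EGFP-L10a, a tagged protein of the large ribosomal subunit, is switched on where Cre was active, in cells that express or have expressed the gene of prepronociceptin. The IP is therefore an enrichment of the ribosome-bound RNA of those cells within the tissue, not a preparation of sorted cells. Since input is total RNA, a fold change of IP over input is not a measure of expression in those cells alone. It also holds any difference in the share of an mRNA bound to ribosomes.

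Translation starts when the small ribosomal subunit, loaded with initiator tRNA by eIF2 and held open by eIF1, eIF1A and eIF3, is brought to the capped mRNA by the eIF4 proteins and scans to the start codon. eEF1A then delivers each aminoacyl-tRNA, the eEF1B subunits recharge eEF1A with GTP, eEF2 moves the ribosome along, and eRF1 with eRF3 ends the chain at the stop codon. Several of these proteins come from paralogous gene pairs, and neurons and muscle are known for using eEF1A2 beside or in place of eEF1A1.

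The 6 libraries were alike in depth, with 48204567 to 51380354 counts in IP and 49068467 to 53056642 in input. Pnoc itself was at 41.1 to 47.7 CPM (counts scaled to a common library size) in IP and 7.51 to 13.2 CPM in input. Of 28 markers of glia, vessels, ependyma and blood all 28 were lower in IP, but the astrocyte list still summed to 592 to 725 CPM in IP, against 1931 to 2447 CPM in input, and the oligodendrocyte list to 561 to 830 CPM in IP, against 4378 to 5551 CPM in input. The microglia list summed to 10.9 to 13.1 CPM in IP and 129 to 142 CPM in input. Of the neuronal markers 3 of 7 and of the GABAergic markers 3 of 5 were higher in IP, and of the 2 glutamatergic markers none was called by edgeR, with 0 at an unadjusted p under 0.05 and 0 by DESeq2. Both glutamatergic markers spread widely between libraries. Slc17a7 had 43.3, 190 and 63.5 CPM in IP replicates 1 to 3, against 363, 103 and 44.0 CPM in input. Slc17a6 had 132, 284 and 218 CPM in IP, against 95.9, 285 and 197 CPM in input. Transcripts of the mitochondrial genome made up 0.106% to 0.214% of the counts in IP and 3.50% to 4.90% in input. These differences accompany every comparison below, and their part in any single gene's change was not tested. IP and input come from the same punches, and so from the same cells. In such a comparison the cells of origin and the share of an mRNA bound to ribosomes cannot be told apart.

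Of the 72 genes 68 passed the filter on low counts and were tested, and in IP 18 of them were higher and 4 were lower, with an adjusted p below 0.05 as the threshold (edgeR's quasi-likelihood test, Benjamini-Hochberg over 18640 genes). That is 26.5% higher and 5.88% lower, against 12.9% and 17.1% of all genes tested, of which 30% were called in either direction. Most translation factor genes are abundant, with a median of 6.44 log2 CPM against 4.44 for protein-coding genes. Among the 6124 protein-coding genes of at least 5 log2 CPM, 28.2% were higher and 11.9% lower, so the share of factor genes called higher lies near that of other abundant genes. The share called lower is smaller. The 68 factor genes were not cut at that level. Of the lower ones Eif2ak2, Eif4ebp1 and Eif2ak4 lie below it, at 1.46, 0.32 and 4.15 log2 CPM. The factor genes' median log2 fold change was 0.17, against 0.18 for those abundant genes and -0.07 for all genes tested. Changes were small, with 45 of the 68 below 0.5 in size on the log2 scale and a whole range of -2.28 to 1.0. In 27 of the 68 all IP libraries lay above all input libraries and in 9 below, which is 39.7% and 13.2%, against 21.7% and 26% of all genes tested. Among the 6124 abundant protein-coding genes this held for 2468 and 1084, so the factor genes' share above lies near that of other abundant genes. Together the factor genes took 1.66%, 1.62% and 1.63% of the counts in IP replicates 1 to 3, against 1.48%, 1.58% and 1.61% in input.

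**Figure D1:**
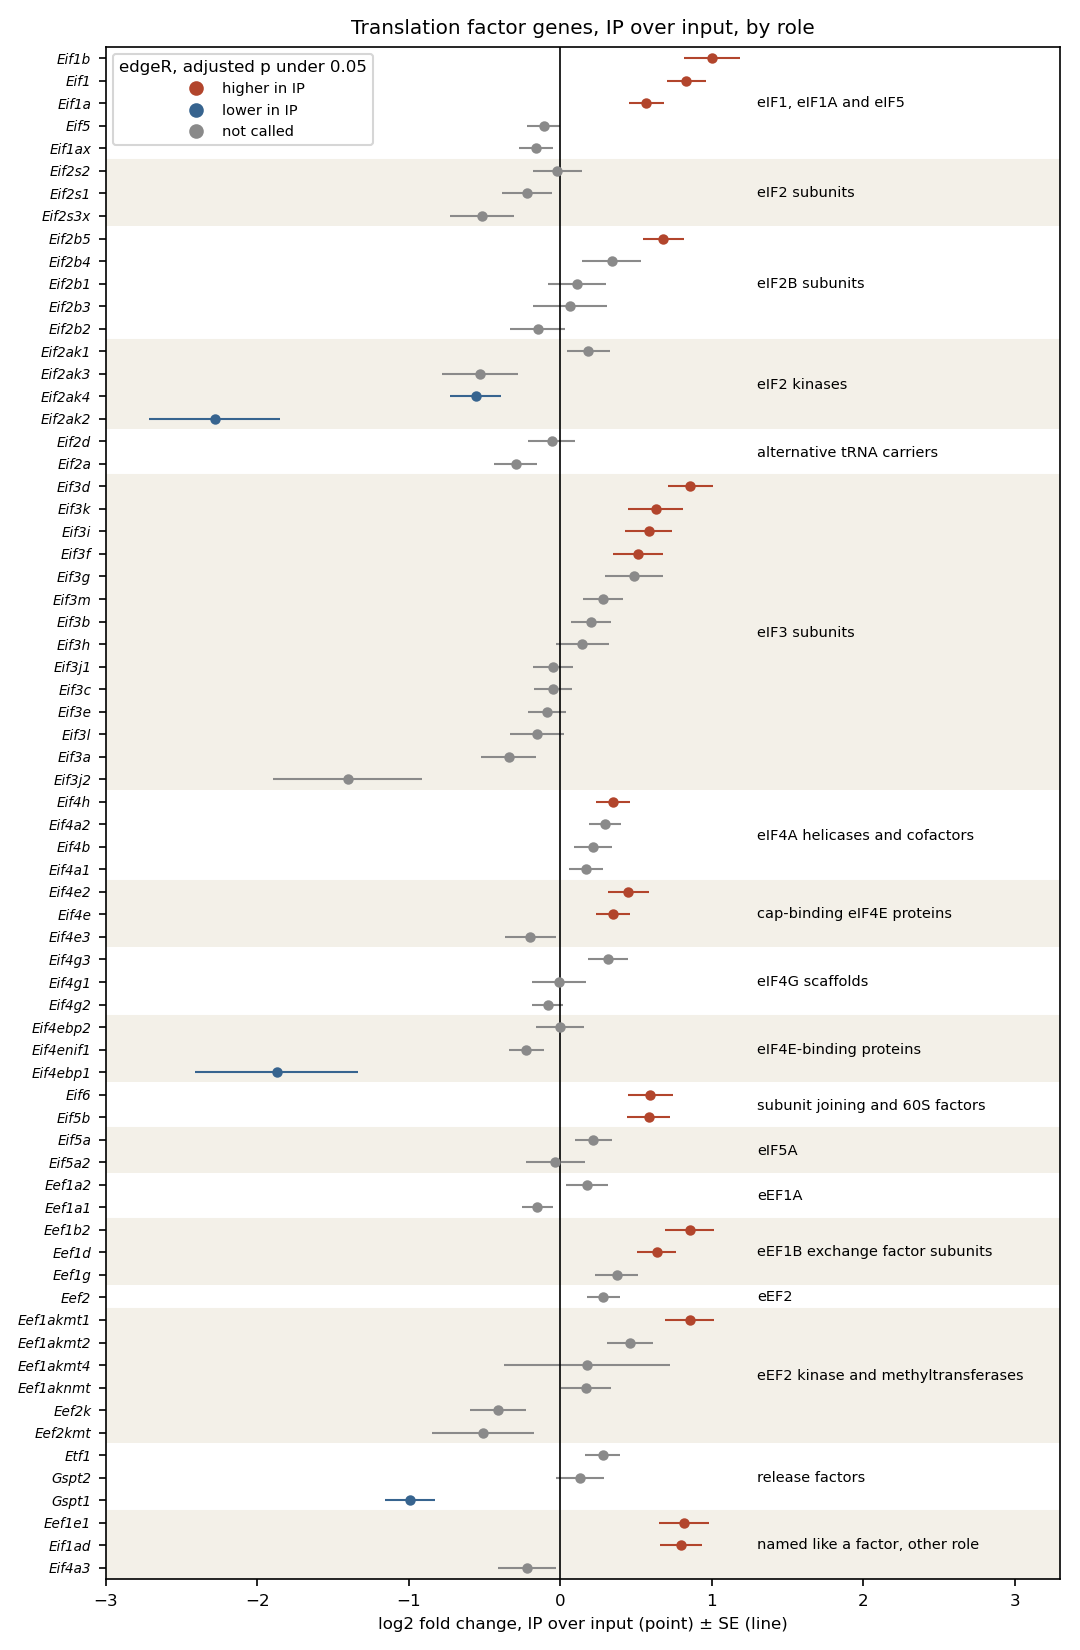
Each point is the log2 fold change of IP over input of 1 of the 68 tested genes, with its standard error as a line, grouped by the role of the protein and coloured by the edgeR call. The 18 red points run from 0.35 to 1.0, the 4 blue points from -0.56 to -2.28, and of these Eif2ak2 and Eif4ebp1 lie farthest to the left.

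The calls were not equally firm. Of the 18 higher genes 10 kept the call without any 1 library, namely Eif1, Eif1b, Eif1a, Eif2b5, Eif3d, Eef1b2, Eef1d, Eef1akmt1, Eef1e1 and Eif1ad, and of the 4 lower genes Gspt1 and Eif2ak2 did. The count of higher genes was 10 without IP replicate 2 or IP replicate 3, and that of lower genes was 2 without IP replicate 3 or input replicate 1. Leaving out input replicate 2 added calls, Eif2b4, Eif3g, Eif3m and Eef1g as higher and Eif2s3x, Eif3a and Eif3j2 as lower, while Eif2ak3 was called lower without IP replicate 2 and Eif4g3 higher when input replicate 1 was omitted. With both replicate 3 libraries left out, 0 members were called higher, with 13 at an unadjusted p under 0.05, and Gspt1 was the 1 called lower. In that fit of 2 against 2 libraries, edgeR called 133 genes of the whole table higher. The other fits of that size gave 15 higher and 3 lower members without replicate 1, and 12 higher and 3 lower without replicate 2. They called 2041 and 1508 genes of the whole table higher, so the loss was particular to leaving out replicate 3.

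Of the 5 genes that act in start codon selection, for eIF1, eIF1A and eIF5, 3 were higher in IP, and all 3 kept the call without any 1 library. That is 60%, in a small group, against 28.2% of abundant protein-coding genes. eIF1, encoded by Eif1 and its paralog Eif1b, keeps the scanning ribosome from stopping at wrong codons. The pair is shown by its first 60 coding bases, since the paralogs must be told apart by sequence for their counts to be separate. Capitals mark the 5 bases that differ. Eif1b is read from chromosome 9 at 120321877 on the plus strand, and Eif1 from chromosome 11 at 100210956 on the plus strand (GRCm39).
Eif1b: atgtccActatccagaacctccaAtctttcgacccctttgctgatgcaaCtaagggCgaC
Eif1: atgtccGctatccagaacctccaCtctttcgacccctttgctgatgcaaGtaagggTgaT
Over the whole coding sequence the pair shares 278 of 342 bases, or 81.3%, with no identical stretch longer than 25 bases, so that a read of 75 bases within the coding part differs between them.

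Eif1b (chr9:120321298-120324396) had 297, 280.3 and 364 CPM in IP replicates 1 to 3, against 119, 174 and 177 CPM in input. Eif1 (chr11:100210711-100212922) had 952, 860.3 and 1035 CPM in IP, against 475, 591 and 535 CPM in input. The lowest IP library lay above the highest input library for both genes. Eif1b had the largest rise among the factor genes, 2.00-fold (log2 fold change 1.0 ± 0.18 SE, adjusted p = 0.00524), and Eif1 rose 1.78-fold (0.83 ± 0.13, adjusted p = 0.00261). Of all 75-base windows of the Eif1 transcript 46.5% also occur in transcripts of other genes, among them noncoding copies, against 8.09% for Eif1b, and an antisense noncoding gene, D830035M03Rik, covers 18.2% of the exon bases of Eif1b with a mean of 82.0 counts in IP and 45.7 in input.

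eIF1A, which works beside eIF1 in scanning, is encoded by Eif1a on chromosome 18 and Eif1ax on the X chromosome. Eif1a had 128, 120.2 and 124 CPM in IP, against 77.0, 86.5 and 87.2 CPM in input. Eif1ax had 203, 214 and 232 CPM in IP, against 256, 236 and 233 CPM in input. Eif1a was higher in every IP library, with a log2 fold change of 0.57 ± 0.12 (adjusted p = 0.00861), whereas every IP library of Eif1ax lay below the input libraries by a margin that was not called (-0.16 ± 0.11, adjusted p = 0.326). Eif5, which makes eIF2 hydrolyse its GTP at the start codon, was at 359 ± 25.6 CPM in IP and 387 ± 5.85 CPM in input (SD, n = 3 each) and was not called.

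**Figure D2:**
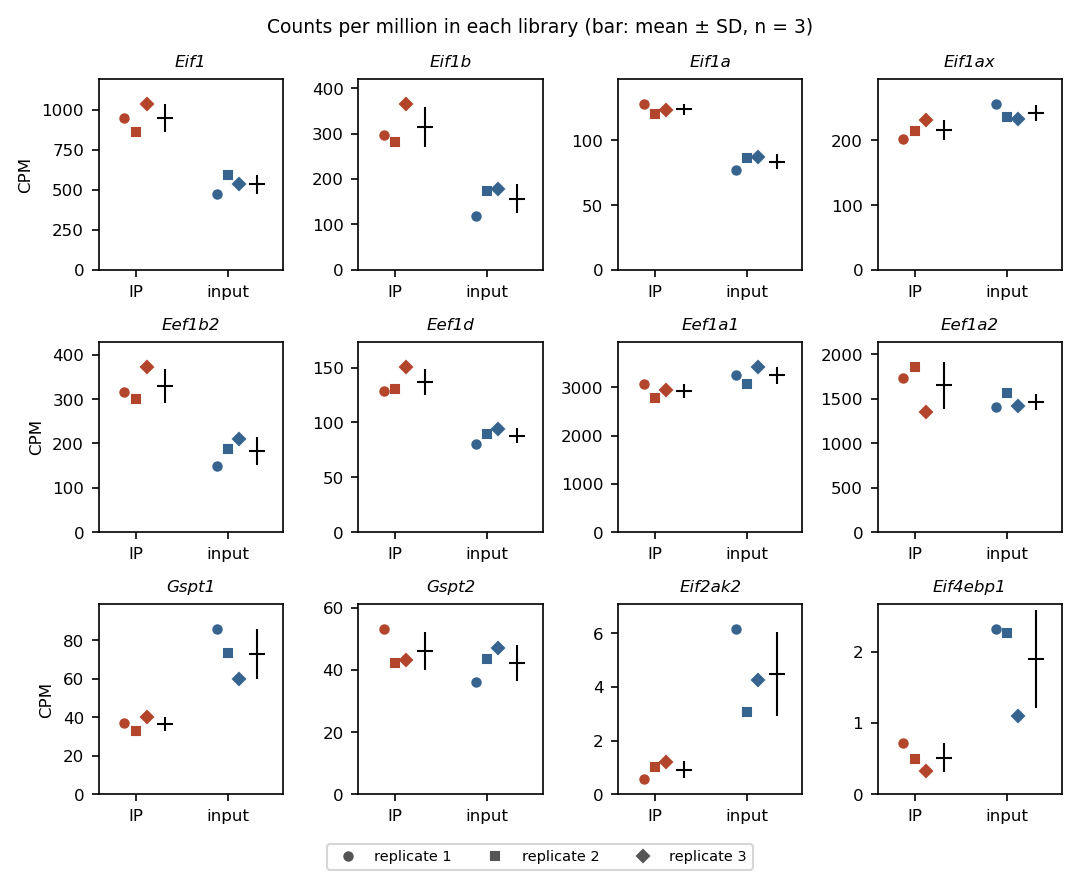
Each panel gives the CPM of 1 gene in the 3 IP libraries on the left and the 3 input libraries on the right, with marker shapes for the replicates and the mean ± SD (n = 3) as a cross. The groups are apart for Eif1, Eif1b, Eif1a, Eef1b2, Eef1d, Gspt1, Eif2ak2 and Eif4ebp1, also, with IP below input by less, for Eif1ax and Eef1a1, and they overlap for Eef1a2 and Gspt2.

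The genes of eIF2, the carrier of the initiator tRNA, gave no call. Eif2s2, the most abundant of the 3, had 112, 108 and 113 CPM in IP, against 89.7, 135 and 113 CPM in input. Eif2s1 was not called either (-0.22 ± 0.17), and Eif2s3x had the lowest fold change of the 3 (-0.52 ± 0.21, adjusted p = 0.0967), and 35.7% of its 75-base windows occur in a processed pseudogene. At an unadjusted p under 0.05 edgeR counted 0 of the 3 genes higher and 1 lower, and DESeq2 called 0. Eif2a and Eif2d, whose products can bring tRNA to the ribosome outside the eIF2 route, were not called either, with 0 at an unadjusted p under 0.05 and 0 by DESeq2. Eif2a, the more abundant of them, had 46.7, 47.5 and 54.5 CPM in IP, against 55.5, 68.7 and 58.3 CPM in input, and the groups did not overlap.

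eIF2B, which reloads eIF2 with GTP, gave 1 call among 5 subunit genes, or 20% higher, against 28.2% of abundant protein-coding genes. Eif2b5 encodes the catalytic subunit and had 103, 105 and 114 CPM in IP, against 57.2, 71.0 and 72.8 CPM in input. Every IP library lay above every input library (log2 fold change 0.68 ± 0.14, adjusted p = 0.00766). The other 4 subunits ran from -0.15 for Eif2b2 to 0.34 for Eif2b4.

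The kinases that phosphorylate eIF2 in stress had 2 of 4 genes lower and none higher in IP by edgeR (0 higher at an unadjusted p under 0.05, 0 by DESeq2). That is 50% lower, in a small group, against 17.1% of all genes tested. Eif2ak2 (chr17:79159993-79190002) encodes PKR, the kinase activated by double-stranded RNA and induced by interferon. It had 26, 47 and 59 counts in IP, against 319, 167 and 220 in input, or 0.554, 1.02 and 1.19 CPM in IP, against 6.16, 3.07 and 4.25 CPM in input. The groups were well apart, and its 4.87-fold lower level was the largest change of all factor genes (-2.28 ± 0.43, adjusted p = 0.00579).

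Eif2ak4 encodes GCN2, the kinase that senses uncharged tRNA. It had 16.5, 12.5 and 13.8 CPM in IP, against 22.0, 19.0 and 22.0 CPM in input, a log2 fold change of -0.56 ± 0.17 (adjusted p = 0.0362). That call was lost without any of IP replicates 2 and 3 and input replicates 1 and 3, with adjusted p up to 0.14. Srp14, on the opposite strand, overlaps 3.38% of its exon bases and had a mean of 10470 counts in IP and 6009 in input. Eif2ak3, the gene of the endoplasmic reticulum kinase PERK, was at 11.3 ± 3.94 CPM in IP and 16.4 ± 1.35 CPM in input and was not called (-0.53 ± 0.25). Eif2ak1, the gene of the haem-regulated kinase HRI, was the most abundant of the 4 per length, at 15.9 FPKM in IP and 13.8 FPKM in input, and was not called (0.18 ± 0.14). The microglia, astrocyte and oligodendrocyte marker sums given above were lower in IP in the same libraries as Eif2ak2 and Eif2ak4, and their part in these falls was not tested.

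eIF3, the large scaffold on the small subunit, is represented by 14 genes, of which 4 were higher and none lower by edgeR, while DESeq2 called Eif3j2 lower. That is 28.6% higher, near the 28.2% of abundant protein-coding genes. Eif3d encodes a subunit able to bind the mRNA cap. It had 68.8, 73.4 and 73.4 CPM in IP, against 33.5, 46.6 and 38.8 CPM in input. Its IP libraries stood clear of the input libraries, with the highest log2 fold change in the complex (0.86 ± 0.15, adjusted p = 0.00432). A noncoding gene on the opposite strand, Gm17638, overlaps 32.5% of its exon bases. That gene had a mean of 70.7 counts in IP and 27.3 in input.

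Eif3i, the gene of a subunit with a propeller fold, had 156, 172 and 174 CPM in IP, against 88.8, 127 and 119 CPM in input (0.58 ± 0.16, adjusted p = 0.0238). Eif3k had 168, 188 and 183 CPM in IP, against 89.6, 146 and 112 CPM in input (0.63 ± 0.18, adjusted p = 0.0309). Eif3f had 243, 251 and 277 CPM in IP, against 143, 219 and 178 CPM in input (0.52 ± 0.17, adjusted p = 0.0464). In each of these genes IP and input did not overlap, but the calls were fragile. The call of Eif3f held only without input replicate 2, that of Eif3k only without input replicate 1 or 2, and that of Eif3i was lost without IP replicate 2 or 3 or input replicate 3, with adjusted p up to 0.145, 0.11 and 0.0818 in that order.

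Eif3a, Eif3b and Eif3c gave no call. Eif3a was at 106 ± 5.93 CPM in IP and 135 ± 31.1 CPM in input, Eif3b at 128 ± 13.8 CPM in IP and 111 ± 8.01 CPM in input, and Eif3c at 156 ± 13.4 CPM in IP and 161 ± 11.8 CPM in input. Further subunit genes that were not called are Eif3m (0.28 ± 0.13), Eif3h (0.14 ± 0.17), Eif3e (-0.09 ± 0.12) and Eif3l (-0.15 ± 0.18). Eif3g was not called without the pairing (0.49 ± 0.19, adjusted p = 0.0914), and with the replicate as a block its adjusted p was 0.0403, within a range of 0.0371 to 0.85 over its alternatives. Eif3j2 on chromosome 18 had the lowest value of the complex (-1.40 ± 0.49, adjusted p = 0.0628), but its coding sequence is identical to that of Eif3j1 over the 786 aligned bases, and 87.4% of its 75-base windows occur in Eif3j1. Its 1.0, 2.49 and 1.55 CPM in IP, against 6.82, 2.28 and 4.27 CPM in input, are uncertain for that reason, since Eif3j1 had 49.4, 48.2 and 59.1 CPM in IP, against 53.8, 52.2 and 55.8 CPM in input.

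**Figure D3:**
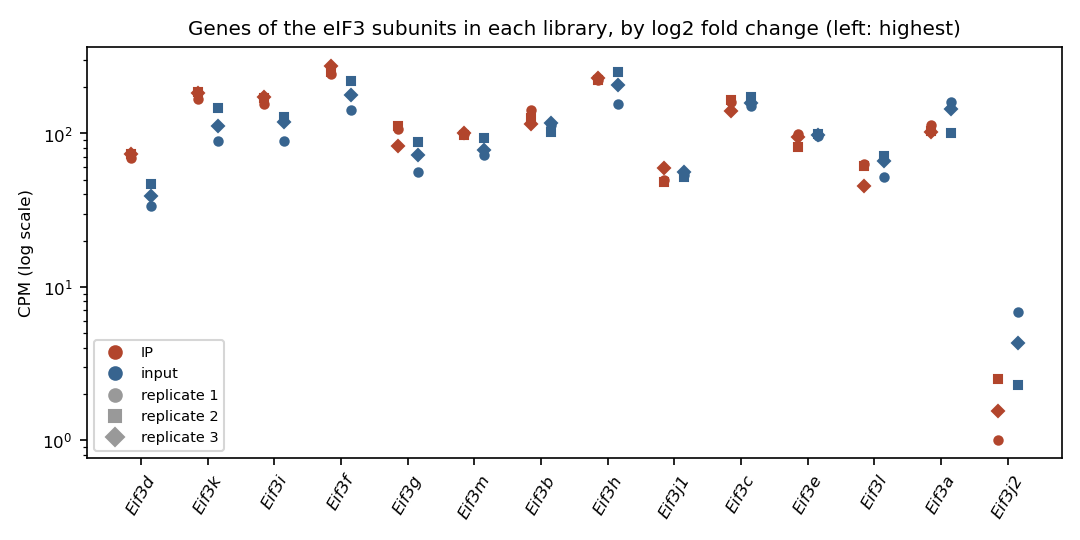
The CPM of the 14 genes of eIF3 subunits are drawn on a log axis for the 3 IP libraries (red, left) and the 3 input libraries (blue, right), ordered by log2 fold change. The groups are apart for Eif3d, Eif3k, Eif3i, Eif3f and Eif3m on the left, and Eif3j2 lies far below the others, between 1.0 and 6.82 CPM.

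The cap-binding machinery showed small changes. Eif4e, the gene of the main cap-binding protein, had 249.5, 236 and 263 CPM in IP, against 187, 209 and 192 CPM in input (0.35 ± 0.11, adjusted p = 0.0485). Eif4e2, the gene of a cap-binding protein that takes part in repression, had 87.1, 92.4 and 106 CPM in IP, against 75.3, 62.5 and 71.3 CPM in input (0.45 ± 0.14, adjusted p = 0.0384). Neither gene's groups overlapped. Eif4e lost its call with the replicate block (adjusted p = 0.068, within 0.00135 to 1 over its alternatives). Its call held only without input replicate 2 and that of Eif4e2 only without input replicate 1, with adjusted p up to 0.147 for Eif4e and 0.133 for Eif4e2 when a library was left out. Eif4e3, a low-level paralog, had 13.3, 13.6 and 13.1 CPM in IP, against 17.7, 14.4 and 13.8 CPM in input, and was not called (-0.20 ± 0.17, adjusted p = 0.411).

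Eif4h, the gene of a cofactor of the eIF4A helicase, had 511, 452 and 448 CPM in IP, against 357, 364 and 387 CPM in input (0.35 ± 0.11, adjusted p = 0.0455). The groups were apart, yet the call was lost without any 1 of the 6 libraries (adjusted p 0.0609 to 0.171) and with the replicate block (0.0649, within 0.0339 to 1 over its alternatives). The helicases themselves were not called. Eif4a2, the form that dominates in brain, had 1249, 1134 and 1246 CPM in IP, against 921, 1014 and 1024 CPM in input (0.29 ± 0.11, adjusted p = 0.0695). Eif4a1 had 303, 295 and 256 CPM in IP, against 249, 257 and 254 CPM in input (0.17 ± 0.11, adjusted p = 0.304). Eif4b, the gene of another cofactor, was at 297 ± 21.1 CPM in IP and 256 ± 24.8 CPM in input and was not called. IP lay above input in every library for Eif4a2, and 64.0% of the 75-base windows of Eif4a1 are shared with other transcripts, nearly all with a pseudogene.

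The eIF4G scaffolds, which bridge the cap-binding protein and eIF3, gave no call, with 1 higher and 0 lower at an unadjusted p under 0.05 and 0 by DESeq2. Eif4g1 had 196, 213 and 158 CPM in IP, against 227, 154 and 188 CPM in input. Eif4g2, whose product lacks the site for eIF4E, had 843, 869.6 and 930.0 CPM in IP, against 974, 922 and 903 CPM in input. Eif4g3 had 214, 234 and 205 CPM in IP, against 199, 163 and 163 CPM in input. Eif4g3 was above input in each IP library (0.32 ± 0.13, adjusted p = 0.102), and the other two overlapped.

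Of the eIF4E-binding proteins, which mTORC1 phosphorylates to free eIF4E, the scarce form was lower in IP and the abundant form was not called. Eif4ebp1 had 34, 23 and 16 counts in IP, against 120, 123 and 57 in input, or 0.725, 0.499 and 0.322 CPM in IP, against 2.32, 2.26 and 1.10 CPM in input. It was 3.66-fold lower in IP (-1.87 ± 0.54, adjusted p = 0.0306), with no overlap, and the call was lost without IP replicate 2 or 3 or input replicate 1 or 2, with adjusted p up to 0.0891. Eif4ebp2 had 89.4, 69.3 and 70.0 CPM in IP, against 86.4, 66.3 and 76.2 CPM in input (0.00 ± 0.16, adjusted p = 0.995). Eif4enif1, the gene of a carrier that brings eIF4E into the nucleus, was at 47.0 ± 1.17 CPM in IP and 55.0 ± 2.12 CPM in input and was not called (-0.23 ± 0.12). As for the kinases, the lower glial marker sums accompany the fall of Eif4ebp1, and their part in it was not tested.

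Eif5b and Eif6, grouped as genes of subunit joining and of the large subunit, were both higher. Eif5b, the gene of the GTPase that joins the subunits, had 147, 198 and 184 CPM in IP, against 116, 113 and 125 CPM in input (0.58 ± 0.14, adjusted p = 0.0166). Eif6, whose product keeps the large subunit apart until it is mature, had 49.3, 49.5 and 49.8 CPM in IP, against 27.1, 35.8 and 35.6 CPM in input (0.59 ± 0.15, adjusted p = 0.0179). The groups were apart in both. Eif5b lost its call without IP replicate 2 or 3 (adjusted p up to 0.0677) and Eif6 without any of the 3 IP replicates (up to 0.0605). Antisense genes overlap both, Rev1 over 19.9% of the exon bases of Eif5b and a noncoding gene over 17.0% of those of Eif6.

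The elongation factors were led by eEF1A, the most abundant of all these mRNAs. Its genes Eef1a2 (chr2:180789446-180798807) and Eef1a1 (chr9:78385731-78396433) are shown by their first 60 coding bases, because the pair is the textbook case of a neuronal and a general isoform. Capitals mark the 11 bases that differ. Both are read on the minus strand, from 180797199 on chromosome 2 and from 78387936 on chromosome 9 (GRCm39).
Eef1a2: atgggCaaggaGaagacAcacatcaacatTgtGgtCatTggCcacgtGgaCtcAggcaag
Eef1a1: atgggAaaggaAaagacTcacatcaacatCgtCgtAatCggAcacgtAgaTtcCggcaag
Over the coding sequence they share 1113 of 1389 bases, or 80.1%, with no identical stretch above 23 bases.

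Eef1a2 had 1736, 1862 and 1353 CPM in IP, against 1405, 1563 and 1415 CPM in input. Eef1a1 had 3067, 2773 and 2951 CPM in IP, against 3259, 3076 and 3429 CPM in input. The groups overlapped for Eef1a2, with IP replicate 3 below all input libraries, while all IP libraries of Eef1a1 lay below input. Neither gene was called, with log2 fold changes of 0.18 ± 0.14 for Eef1a2 (adjusted p = 0.381) and -0.15 ± 0.10 for Eef1a1 (adjusted p = 0.303). Per length, Eef1a2 was at 791 FPKM in IP and 687 FPKM in input, and Eef1a1 at 1175 FPKM in IP and 1280 FPKM in input. Of the 75-base windows of Eef1a1 41.7% also occur in other transcripts, mostly pseudogenes, and 1.02% of those of Eef1a2. The share of Eef1a2 was taken over an annotated transcript of 13742 bases, whereas its deposited gene length is 2084 bases. The 2 shares are therefore not comparable. The same transcript length of Eef1a2 entered the correction for length and GC content below.

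The exchange factor eEF1B, which recharges eEF1A with GTP, had 2 of its 3 subunit genes higher, or 66.7%, against 28.2% of abundant protein-coding genes. Eef1b2 encodes a catalytic subunit and had 315, 299 and 373 CPM in IP, against 148, 188 and 210.2 CPM in input. Eef1d encodes the other catalytic subunit and had 129, 131 and 151 CPM in IP, against 80.3, 89.4 and 94.1 CPM in input. Every IP library of both genes was above every input library (Eef1b2 0.86 ± 0.16, adjusted p = 0.00576, and Eef1d 0.64 ± 0.13, adjusted p = 0.00783). Eef1g, the structural subunit, had 625, 596 and 614 CPM in IP, against 383, 537 and 498 CPM in input. Its groups were also apart but it was not called (0.37 ± 0.14, adjusted p = 0.0814), and 56.5% of its windows are shared, mostly with a pseudogene. Eef1b2 overlaps Ndufs1 on the opposite strand over 8.92% of its exon bases, and Eef1d overlaps Tigd5 over 8.71%. The exon counts of these neighbours were at means of 6427 in IP and 6807 in input for Ndufs1, and 386 in IP and 325.7 in input for Tigd5.

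Eef2, the gene of the translocase, had 1548, 1627 and 1515 CPM in IP, against 1172, 1374 and 1305 CPM in input. The groups did not overlap, and the change was not called (0.28 ± 0.11, adjusted p = 0.0814). Eef2k, whose product is the kinase that stops eEF2, was at 14.8 ± 2.07 CPM in IP and 19.7 ± 3.08 CPM in input and was not called (-0.41 ± 0.18, adjusted p = 0.128). Among the methyltransferase genes Eef1akmt1, whose product modifies a lysine of eEF1A, had 50.0, 48.2 and 61.4 CPM in IP, against 28.0, 34.5 and 25.9 CPM in input. It was higher without overlap (0.85 ± 0.16, adjusted p = 0.00641). Eef1akmt2 missed the threshold (0.46 ± 0.15, adjusted p = 0.0537), and DESeq2 called it higher. The other 3 tested methyltransferase genes, Eef1akmt4, Eef1aknmt and Eef2kmt, ran from -0.51 for Eef2kmt to 0.18 for Eef1akmt4 and were not called. Of these, Eef2kmt shares 58.3% of its exon bases with Alg1 on the opposite strand and Eef1akmt4 shares 26.7% with Camk2n2.

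eIF5A, which helps the ribosome past difficult stretches such as runs of proline and carries the unusual amino acid hypusine, has 2 genes. Eif5a had 498, 520.0 and 497 CPM in IP, against 386, 489.9 and 428 CPM in input. Eif5a2 had 119.9, 173 and 172 CPM in IP, against 124, 181 and 170.2 CPM in input. IP was above input in all libraries of Eif5a, with a change that was not called (0.22 ± 0.12, adjusted p = 0.22), and the groups of Eif5a2 overlapped (-0.03 ± 0.20, adjusted p = 0.919). With the replicate block and a correction for length and GC content Eif5a2 changed sign to 0.44 and was called higher (edgeR adjusted p = 0.012, within 0.012 to 1 over its alternatives). Both enzymes that make hypusine were higher in IP. Dohh, the hydroxylase of the last step, had 45.7, 39.1 and 51.9 CPM in IP, against 13.2, 18.1 and 15.3 CPM in input (1.55 ± 0.18, adjusted p = 0.000655). Dhps, the synthase of the first step, had 55.2, 57.7 and 56.7 CPM in IP, against 24.8, 40.9 and 30.2 CPM in input (0.82 ± 0.19, adjusted p = 0.0128). The groups were apart in both enzymes. Dohh kept its call in every alternative that was run, Dhps lost it without input replicate 3 (adjusted p = 0.0614, within 0.00062 to 0.199 over its alternatives), and their log2 changes exceeded those of the eIF5A genes themselves.

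Of the paralogs for eRF3, the GTPase of termination, Gspt1 was lower in IP and Gspt2 was not called. Gspt1 (chr16:11037156-11072189) had 37.0, 33.1 and 40.3 CPM in IP, against 86.0, 73.4 and 59.9 CPM in input. It was 1.99-fold lower in IP without overlap (-0.99 ± 0.17, adjusted p = 0.00355), and it kept this call in every alternative that was run, with adjusted p between 7.02e-06 and 0.0453. The size was less stable, at a log2 fold change of -0.59 with the replicate block and the correction for length and GC content. Gspt2, a retrogene-derived paralog on the X chromosome, had 53.1, 42.1 and 43.1 CPM in IP, against 36.0, 43.6 and 47.1 CPM in input, and the groups overlapped (0.13 ± 0.16, adjusted p = 0.585). Etf1, the gene of eRF1, which reads the stop codon, had 143, 143 and 153 CPM in IP, against 118, 114 and 129 CPM in input, without overlap and without a call (0.28 ± 0.12, adjusted p = 0.102). Antisense and neighbouring noncoding transcripts overlap Gspt1, among them 2610020C07Rik over 14.4% of its exon bases with means of 34.7 counts in IP and 51.3 in input.

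Of the 3 tested genes with factor-like names and other roles 2 were higher, or 66.7%, against 28.2% of abundant protein-coding genes. Eef1e1, whose product belongs to the complex of tRNA synthetases, had 89.0, 77.5 and 96.8 CPM in IP, against 40.2, 52.5 and 56.6 CPM in input (0.82 ± 0.17, adjusted p = 0.00778). Eif1ad had 51.5, 50.4 and 56.4 CPM in IP, against 27.3, 33.8 and 30.1 CPM in input (0.80 ± 0.14, adjusted p = 0.00395). Both were free of overlap between groups, and Eif1ad shares 29.9% of its exon bases with Banf1 on the opposite strand. Eif4a3, the gene of a core protein of the exon junction complex, was at 53.6 ± 11.2 CPM in IP and 62.3 ± 9.99 CPM in input and was not called (-0.22 ± 0.19).

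The 4 genes that did not pass the filter were near or at 0. Eef1akmt3 had 2 counts in IP replicate 2 and 6 in input replicate 3. Eif4ebp3 had 20 counts, all in input replicate 3, and Eif1ad15 had 4, all in IP replicate 1. Eif4a3l2 had 1 count in IP replicate 2, against 1, 7 and 3 in the input replicates. A count of 0 or of these sizes allows no statement on a difference.

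Ratios of paralogs within a library do not depend on library scaling and were compared for 12 pairs, by an exact permutation test, two-sided, of 3 IP against 3 input libraries that cannot go below p = 0.1. The log2 ratio of Eef1a2 to Eef1a1 differed by 0.32 between IP and input (p = 0.2, exact permutation, 0.343 adjusted over the 12 pairs). The FPKM ratio of this pair was 0.677, 0.803 and 0.548 in IP, against 0.516, 0.608 and 0.493 in input, higher in IP in 3 of 3 replicates but overlapping between groups. eEF1A1 mRNA was thus the more abundant of the pair in all 6 libraries.

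In 5 pairs the groups did not overlap, which gives the smallest p this permutation test can return (0.1, exact permutation, 0.24 adjusted). The log2 ratio of Gspt2 to Gspt1 was higher by 1.11 in IP, and the FPKM ratio was 2.06, 1.83 and 1.53 in IP, against 0.601, 0.852 and 1.13 in input. Gspt2 thus outweighed Gspt1 per length in all IP libraries, and the order was the reverse in 2 of the 3 input libraries. The ratio of Eif4ebp2 to Eif4ebp1 was higher by 1.85, and that of Eif1a to Eif1ax by 0.73. The FPKM ratio of Eif1a to Eif1ax was 0.798, 0.709 and 0.673 in IP, against 0.380, 0.463 and 0.472 in input. Eif4g3 over Eif4g1 was higher by 0.32 and Eif4e3 over Eif4e lower by 0.54 on the log2 scale. None of these passes 0.05, which this unpaired permutation of 3 against 3 libraries cannot reach. Within the tissue pools the difference had the same sign in 3 of 3 for each of the 5 pairs. That follows from the lack of overlap by which these pairs were picked, and it adds no evidence.

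The ratios of Eif1b to Eif1 (0.18, p = 0.3, exact permutation) and of Eif4a2 to Eif4a1 (0.13, p = 0.4, exact permutation) overlapped between the groups. Within the tissue pools Eif1b over Eif1 was higher in IP in 3 of 3, by 0.32, 0.14 and 0.09, and Eif4a2 over Eif4a1 in 2 of 3. Eif4a2 was 3.35, 3.12 and 3.95 times Eif4a1 per length in IP, against 3.01, 3.21 and 3.28 times in input. Eif4e2 over Eif4e (0.10), Eif5a2 over Eif5a (-0.26), Eif4g2 over Eif4g1 (-0.08) and Eif3j2 over Eif3j1 (-1.31) overlapped between groups, with exact permutation p of 0.7, 0.3, 0.6 and 0.2. Of these Eif5a2 over Eif5a was lower in IP in all 3 pools, by -0.42, -0.15 and -0.20. Apart from the eIF3J pair, no pair shares any 75-base window in its coding sequences.

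**Figure D4:**
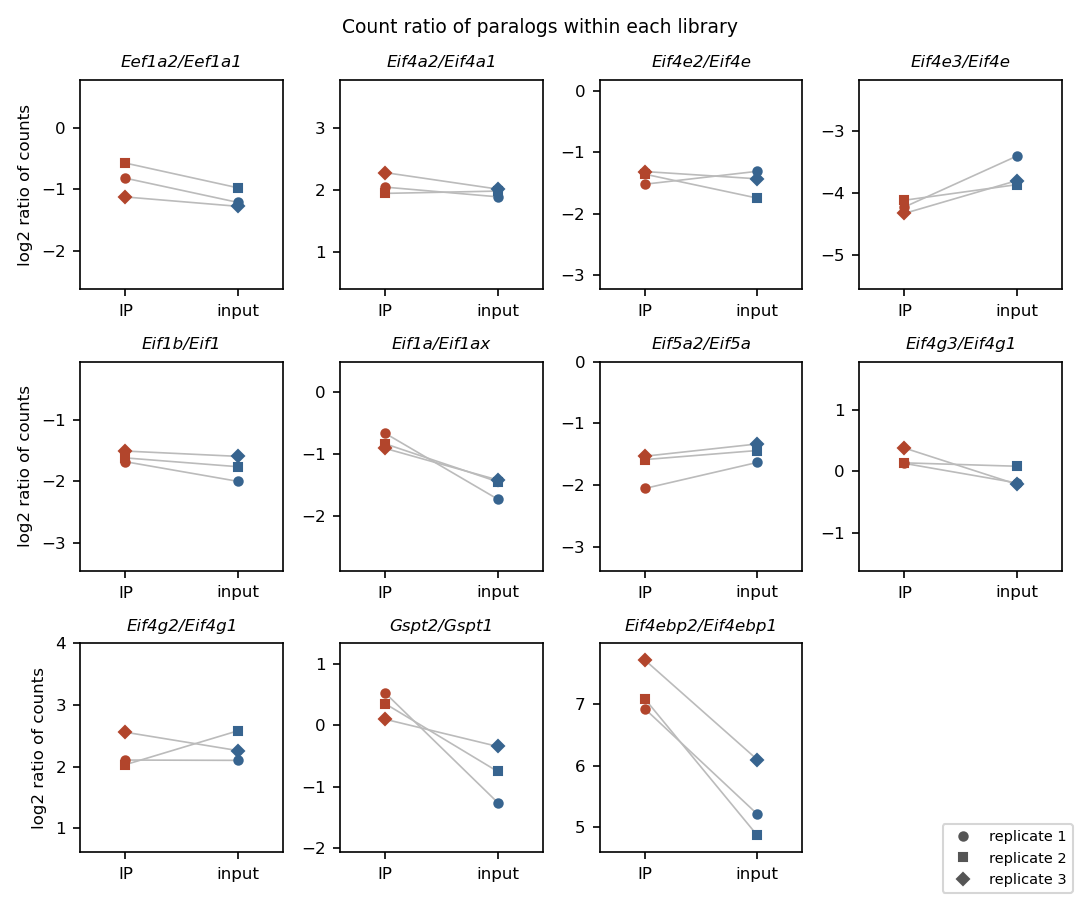
Each panel gives the log2 ratio of the counts of 2 paralogs in the 3 IP libraries (left) and the 3 input libraries (right), with lines joining libraries of the same tissue pool and an own vertical range for each panel. The groups are apart for Eif4e3/Eif4e, Eif1a/Eif1ax, Eif4g3/Eif4g1, Gspt2/Gspt1 and Eif4ebp2/Eif4ebp1, and the lines of Eef1a2/Eef1a1 all point downwards from IP to input.

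Other genes of translation, taken from lists of known members, set the factors in context. Of all genes tested 12.9% were higher and 17.1% lower in IP, and of abundant protein-coding genes 28.2% and 11.9%. Of 84 cytoplasmic ribosomal protein genes tested, 40 were higher and 1 lower in IP, with a median log2 fold change of 0.57, the lower one being Rpl23a (-0.67 ± 0.14, adjusted p = 0.00802). Rpl27 had 270, 260 and 345 CPM in IP, against 108, 140 and 168 CPM in input (1.08 ± 0.19, adjusted p = 0.00442). This count is unstable, at 16 without IP replicate 3, 20 without input replicate 3, 24 without IP replicate 1, 25 with library totals alone, 0 without both libraries of replicate 3 and 55 with the replicate block. Of 20 cytoplasmic tRNA synthetase genes 5 were higher, of which Wars (0.40 ± 0.11) and Hars (0.47 ± 0.13) had the smallest adjusted p, and 2 were lower, Dars (-0.67 ± 0.14) and Eprs (-0.62 ± 0.13). That is 25% higher and 10% lower, near the shares of abundant genes. With the replicate block Sars was called higher as well (0.42, adjusted p = 0.0449, against 0.0794 without the block). Without single libraries the count of higher synthetases ran from 0 to 5. Wars lost its call without any IP replicate or input replicate 3, Hars without IP replicate 1 or 2 or input replicate 3, and Eprs without input replicate 3, with adjusted p up to 0.105, 0.11 and 0.0559 in that order.

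Among 13 genes for poly(A)-binding proteins and helpers of starting 5 were higher, or 38.5%, against 28.2% of abundant protein-coding genes. Larp1, whose product binds the capped ends of ribosomal protein mRNAs, had 206, 217 and 219 CPM in IP, against 126, 117 and 124 CPM in input (0.80 ± 0.11, adjusted p = 0.00157). Mcts1 (0.80 ± 0.15) and Denr (0.81 ± 0.16), whose products act together on ribosomes after termination and in restarting, were both higher. The 1 lower gene of this list was Pabpc1, the main cytoplasmic poly(A)-binding protein, with 77.2, 82.2 and 52.5 CPM in IP, against 175, 134 and 158 CPM in input (-1.14 ± 0.19, adjusted p = 0.00375).

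Upstream of the factors, 2 of 11 genes of mTORC1 and its targets were higher, Rptor (0.77 ± 0.11) and Rheb (0.58 ± 0.12), and edgeR called none lower, with 1 at an unadjusted p under 0.05 and 0 by DESeq2. With the replicate block edgeR called Rps6kb1 lower (-0.46, adjusted p = 0.0487, against 0.0735 without the block). Of 11 effectors of the integrated stress response, the pathway that the eIF2 kinases start, Atf4 was higher (0.63 ± 0.14, adjusted p = 0.0105) and Ddit4 lower (-0.59 ± 0.17, adjusted p = 0.0288). Ddit4 lost its call without replicate 1 or 3 of either group, with adjusted p up to 0.114. Of 5 MNK and RSK kinases Rps6ka3 was lower (-1.02 ± 0.28), a call lost without any of the 3 IP replicates (adjusted p up to 0.0951). Without input replicate 1 its log2 fold change was -0.59, and with the replicate block edgeR also called Rps6ka2 of this list higher (0.47, adjusted p = 0.0257). Of 6 genes for ribosome rescue and selenocysteine Hbs1l was higher (0.68 ± 0.14). The 11 mitochondrial translation factors had 1 higher, Tsfm (0.99 ± 0.15), and 1 lower, Guf1 (-1.06 ± 0.19). That is 9.09% each, as for the stress response effectors, and 18.2% of the mTORC1 list were higher. Of the MNK and RSK list 20% were lower, and of the rescue list 16.7% were higher. Against these stand 12.9% higher and 17.1% lower of all genes tested, and no list was tested as a set.

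**Figure D5:**
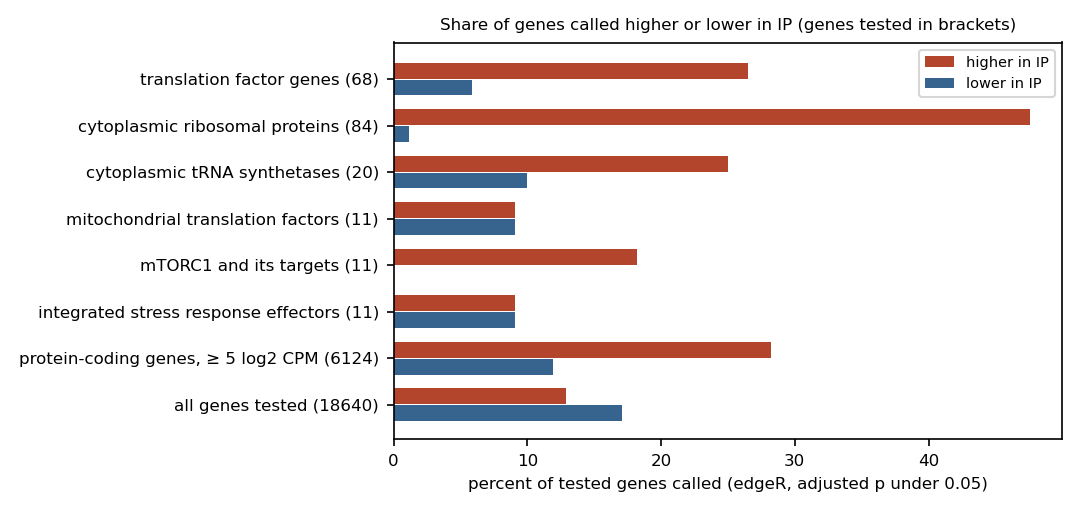
Bars give the percent of tested genes called higher (red) or lower (blue) in IP, with the number of genes tested in brackets. Translation factor genes, at 26.5% higher, lie near abundant protein-coding genes, at 28.2%, and below ribosomal protein genes, at 47.6%. Their share called lower, 5.88%, is below the 11.9% of abundant protein-coding genes.

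Across the 68 tested factor genes the log2 fold change went with transcript length at a Spearman rho of -0.36, with GC content at 0.36 and with mean level at 0.37. Over 14932 protein-coding genes of the same libraries these were -0.28, 0.22 and 0.35. They describe genes that share libraries and depth and carry no test. A correction of each library for length and GC content, run with the replicate block, gave 18 higher and 5 lower, of which 14 and 3 were among the 22 calls above. It removed the calls of Eif4e2, Eif3k, Eif4h, Eif6 and Eif2ak4. It added Eef1akmt2 (0.84), Eif4a2 (0.38), Etf1 (0.46) and Eif5a2 (0.44) as higher, and Eif2b2 (-0.39) and Eif4a3 (-0.46) as lower. Among the calls it kept, Eif4e stood at 0.75 and Eif5b at 0.88 in place of 0.35 and 0.58, while Eif3i stood at 0.35 in place of 0.58 and Gspt1 at -0.59 in place of -0.99.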

How the data were processed

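HISAT2, featureCounts and DESeq2 are the tools and mm39 the build named in the submitters' processing notes; versions and the strand setting are not given in the sources used here, so reads of overlapping or antisense genes cannot be told apart. The deposited read counts are whole numbers per gene. The authors also deposited FPKM, which divide counts by gene length and served only to compare levels between genes. A normalized signal, counts divided by a size factor per library, was also deposited and not used for tests. The log2 fold changes and adjusted p-values of the authors' deposited table call 19 members higher and 5 lower.

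Counts of all genes were fitted with edgeR 4.0.16 in R 4.3.3 (TMM, filterByExpr by group, quasi-likelihood test, two-sided, Benjamini-Hochberg). CPM use TMM-scaled library sizes, and the SE is the log2 fold change over the square root of F. Paralog ratios used counts plus 0.5. The fit was also run on simulated counts, with larger changes than most found here and without shared pools, which does not test the calls above. Same-numbered libraries come from the same tissue pool, per the series' design text, so they are paired. Their deviations from the group means correlated at 0.26, 0.14 and 0.10, against -0.22 to 0.09 for libraries of different pools. The main fit and the permutation test left the pairing out, and the replicate block was an alternative. Replicates are pools. The p-values of the main fit measure the spread between libraries within IP and within input, not the spread of the paired difference between pools.

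Members, lists and pairs were chosen with earlier results of these data known. Named are both genes of each pair and up to 2 called genes per role and direction, or the most abundant where none was called, and up to 2 per list and direction; Eif3f, Eif3k, Eif3g, Eif3m, Eif2ak1, Eif2ak3, Eef2k, Eef1akmt2, Denr and further members outside this rule were added after their values were seen. Overlaps and shared 75-base windows come from GENCODE M39, in which 27576 of the 27884 gene identifiers and all 72 members were found. Alternatives were upper-quartile factors, RLE factors, library totals, 2 filters, the block, left-out libraries, DESeq2 1.42.0 and testing against a fold of 1.5; corrections for length and GC content without the block and library sizes without mitochondrial genes were added after seeing the data.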

Additional observations from a re-analysis of the deposited data

How the results depend on the processing

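The 18 higher and 4 lower calls became 17 and 4 with the replicate block, where Eif3g was gained and Eif4e and Eif4h were lost, and it changed no other call among the members. Leaving out libraries gave 0 to 20 higher and 1 to 6 lower, the lowest of each without both libraries of replicate 3 (edgeR, 13 higher at an unadjusted p under 0.05). Each single library left out gave 10 to 20 higher and 2 to 6 lower. Against a fold change of 1.5, edgeR called 0 higher, with 7 at an unadjusted p under 0.05, and 2 lower, Eif2ak2 and Gspt1. Library totals alone gave 12 higher and 5 lower, so that 70.6% of calls were higher, against 81.8% with TMM, and moved the median log2 fold change of all genes by -0.11. RLE factors gave 19 and 4, upper-quartile factors 15 and 4, DESeq2 19 and 5, no low-count filter 16 and 3, and the stricter filter and library sizes without mitochondrial genes 18 and 4 each. Length and GC correction gave 17 and 3 without the block and 18 and 5 with it, and with both applied Eif5a2 stood at a log2 fold change of 0.44, called higher, in place of -0.03; the cause was not tested. Eif4ebp1 and Eif2ak2 rest on 16 to 59 counts per IP library, and a difference in the 4 untested genes was not detectable at this depth. Intervals cover counting and the spread between libraries of a group only.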
